A study of Mus musculus with 4 samples.

Results

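RNA-seq of mouse germinal vesicle (GV) stage oocytes was examined for 10 genes of DNA break sensing and damage signalling: Rad50, Nbn, Atm, Atr, Atrip, Smg1, Chek1, Mdc1, Rnf8 and Trp53bp1. The members were found in the transcript table by their NCBI gene identifiers, which took 10 of 17374 listed genes and 32 of 45505 listed RefSeq transcripts. The study compared control with irradiated oocytes to learn which transcripts change after genotoxic stress. Each condition had 2 libraries of pooled, denuded oocytes from female mice of a C57/Bl6/DBA2J F1 hybrid background at postnatal day 16, without hormone priming. Oocytes were cultured in MEM with bovine serum albumin and milrinone, a phosphodiesterase inhibitor that keeps them from resuming meiosis, and their zonae were removed before lysis. For irradiation they were moved to M2 medium with milrinone and afterwards returned to fresh MEM. The control oocytes were not irradiated, and the irradiated oocytes received 5 Gy of γ-irradiation from a caesium source and were collected 24 h later. The study's methods give 59 oocytes for each condition and name independent experiments as the replicates, so p-values measure the spread among these 4 libraries. The sources used here do not say how long the control oocytes were cultured or whether they also passed through M2 medium. Irradiation, time in culture and this change of medium therefore cannot be told apart.

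Broken DNA ends are first held by a complex of Mre11, Rad50 and nibrin, the product of Nbn, which recruits and activates the kinase ATM. ATR, held to single-stranded DNA by its partner ATRIP, answers to resected ends and stalled forks and activates the effector kinase CHK1, the product of Chek1. ATM phosphorylates the histone H2AX beside a break, MDC1 binds that mark and recruits the ubiquitin ligase RNF8, and the chain ends in binding of 53BP1, the product of Trp53bp1. SMG1 belongs to the same kinase family as ATM and ATR and is best known for phosphorylating UPF1 in nonsense-mediated mRNA decay. In oocytes arrested at prophase this pathway is known for guarding the primordial pool, and it acts largely through phosphorylation and ubiquitin. The study describes most oocytes at postnatal day 16 as still transcribing, with chromatin in the non-surrounded nucleolus (NSN) state.

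The libraries held 33349466 to 37232818 estimated counts over all genes. All 13 oocyte markers were listed and expressed, with a summed level of 49450 to 56720 TPM, a level divided by transcript length and scaled to the same total in every library. Of 12 granulosa and cumulus markers 8 were listed, with a summed level of 16.8 to 19.2 TPM in the control libraries and irradiated library 1 and 22.4 TPM in irradiated library 2. Of these 8, Cyp19a1 had 528 to 543 counts, Nr5a2 382 to 702, Kitl 172 to 222, Fshr 91 to 148 and Star 14 to 19, while Inha had 3 to 11, Inhba 0 to 7 and Hsd17b1 0 to 2, and the part of such cells in the differences below was not tested. Of 6 markers of theca, stroma and blood 3 were listed, with a summed level of 4.01 to 6.02 TPM. Irradiated library 2 stood apart from the rest: its log expression correlated with the other libraries at 0.9801 to 0.983, against 0.9905 to 0.9923 among the other 3. Its scaling factor was 1.19, above the other 3. Its normalised count was the highest or the lowest of the 4 for 73.6% of all genes tested and for 8 of the 10 members, against 47.4% and 7 members for control library 1, 38.6% and 2 for control library 2 and 40.4% and 3 for irradiated library 1. Every difference below is therefore given with its value in each library. In pooled oocytes, fewer cells that hold a transcript and less of it in each cell cannot be told apart.

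In the RefSeq annotation of build GRCm38.p6, chromosome 9 holds 4 of the 10 genes, Chek1 at chr9:36708482-36726658, Atm at chr9:53437122-53536828, Atr at chr9:95857597-95953217 and Atrip at chr9:109059747-109074124. Rnf8 at chr17:29614789-29641664 and Mdc1 at chr17:35841495-35859670 share chromosome 17. Trp53bp1 lies at chr2:121194835-121296354, Nbn at chr4:15957587-15992589, Smg1 at chr7:118131308-118244437 and Rad50 at chr11:53649519-53707319.

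Promoter windows from RefSeq (build GRCm38.p6, 250 bases before to 50 after the transcription start) were found for 8 members, all but Rad50 and Nbn. In TPM, Atrip, Trp53bp1 and Rnf8 were higher in both irradiated libraries than in either control, as were 32.8% of all genes tested. Below are the promoters of Rnf8 and Chek1, with the highest levels, of Atm, with the lowest, and of Trp53bp1, 1 of those 3. Each is printed 5′ to 3′ on the strand of the gene from 250 bases before the start to 30 after it, and capitals mark matches on either strand to 5 short motifs chosen after these windows had been seen, which are the TATA box (TATAAA), the CCAAT box (CCAAT), the core of an Sp1 site (GGGCGG), an E2F-type sequence (TTCCCGC) and the core of a cAMP response element (TGACG). Rnf8 lies at chr17:29614539-29614818 on the plus strand and Chek1 at chr9:36726629-36726908 on the minus strand. Atm lies at chr9:53536642-53536921 and Trp53bp1 at chr2:121271378-121271657, both on the minus strand. The starts used for Atm and Trp53bp1 are inside the annotated span of the gene rather than at its outer end.
Rnf8: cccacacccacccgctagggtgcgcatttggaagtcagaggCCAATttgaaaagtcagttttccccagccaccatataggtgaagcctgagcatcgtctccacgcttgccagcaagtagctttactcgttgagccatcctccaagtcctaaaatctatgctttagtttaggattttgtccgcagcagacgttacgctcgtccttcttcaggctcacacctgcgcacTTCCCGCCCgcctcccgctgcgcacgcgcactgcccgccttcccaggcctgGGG
Chek1: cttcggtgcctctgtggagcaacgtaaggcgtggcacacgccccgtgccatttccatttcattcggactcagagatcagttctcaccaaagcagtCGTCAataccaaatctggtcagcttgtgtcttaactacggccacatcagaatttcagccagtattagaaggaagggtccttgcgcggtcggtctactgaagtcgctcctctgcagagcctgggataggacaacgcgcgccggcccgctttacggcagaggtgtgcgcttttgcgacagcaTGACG
Atm: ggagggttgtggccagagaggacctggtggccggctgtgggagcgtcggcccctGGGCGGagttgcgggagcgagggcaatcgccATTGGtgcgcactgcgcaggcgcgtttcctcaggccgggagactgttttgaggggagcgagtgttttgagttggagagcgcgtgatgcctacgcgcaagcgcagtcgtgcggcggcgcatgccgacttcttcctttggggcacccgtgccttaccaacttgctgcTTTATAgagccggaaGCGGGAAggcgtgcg
Trp53bp1: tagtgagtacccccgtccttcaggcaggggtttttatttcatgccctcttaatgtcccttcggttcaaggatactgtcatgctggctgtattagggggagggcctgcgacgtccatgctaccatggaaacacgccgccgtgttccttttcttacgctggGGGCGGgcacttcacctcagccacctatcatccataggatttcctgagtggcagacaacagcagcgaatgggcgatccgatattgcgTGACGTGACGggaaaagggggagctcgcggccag

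The Sp1 core was in 7 of the 8 windows, against 58.4% of the 12861 windows of genes tested here and 35.6% of all 32817 windows. Chek1 was the window without it. The E2F-type sequence was in 4 windows, those of Atm, Chek1, Mdc1 and Rnf8, against 7.79% of the windows of tested genes and 4.6% of all. The Chek1 match began 44 bases after the start, past the printed stretch, while the Rnf8 match began 24 bases before it and overlapped a match to the Sp1 core. The cAMP element core was in 5 windows against 29.2% of those of tested genes and 20.8% of all. The CCAAT box was in 5, against 38.7% of tested and 37.4% of all. The TATA box was found in Atm alone, on the strand opposite to the gene, where the printed strand reads its complement at the start itself, against 7.89% of tested and 13.6% of all windows. The windows ranged from 55.3% GC in Chek1 to 72% in Smg1, with a median of 60% over tested genes and 52.7% over all. A match is a run of letters, not a shown site, and the windows are few. Because the motifs were chosen after these windows had been seen, the shares cannot test for an excess.

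Levels among the 10 genes, in TPM, spanned 628-fold. Rnf8 and Chek1, the ubiquitin ligase and the effector kinase, together held 90.9% of the summed mean level of the 10 genes, whereas the kinases Atm, Atr and Smg1 were at 0.363 to 2.67 TPM. Between these extremes lay the end-holding subunits Rad50 and Nbn and the chromatin reader Trp53bp1. The median over all listed genes was 1.41 TPM, above which 7 of the 10 members lay. The span and the share of Rnf8 and Chek1 use the deposited Rnf8 level, which turns on its transcript length, as given below.

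**Figure D1:**
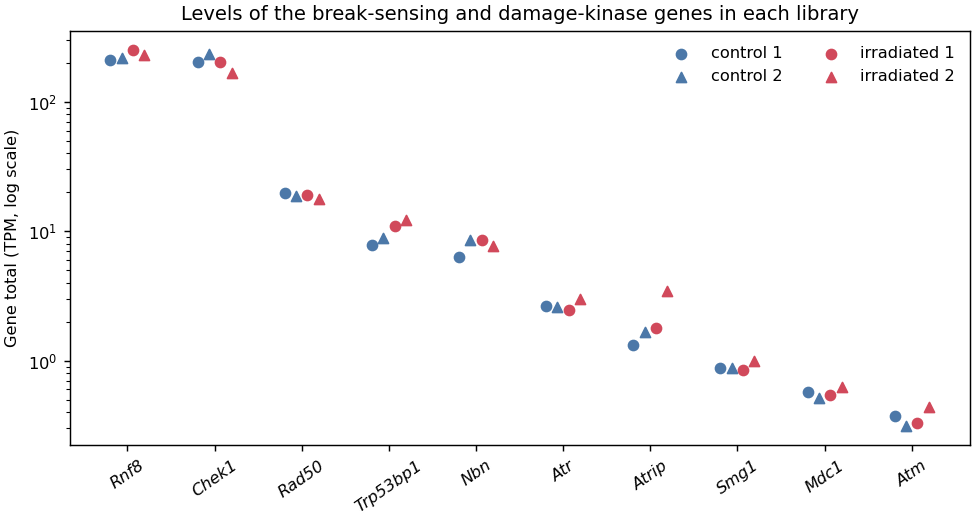
Gene totals in TPM on a log axis for the 10 genes, in order of mean level, with control libraries in blue and irradiated libraries in red and 1 point for each library. The 4 points of a gene lie close together beside the distance between genes, from about 228 TPM for Rnf8 to 0.363 TPM for Atm, and Atrip in irradiated library 2 is the point farthest from its group.

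Rnf8 read 211, 218, 251 and 231 TPM in control 1, control 2, irradiated 1 and irradiated 2, which is the order used for all values given in fours. Chek1 read 204, 235, 202 and 166 TPM. The ranges of these highest-placed genes overlapped, at ranks 621 and 688 of the 17374 listed genes, so they were not separated. Their order also turned on the transcript length behind the TPM. The ratio of count to TPM placed the deposited Rnf8 transcript, NM_021419.2, at about 2060 bases, while the GENCODE M21 transcript matched to it has 5404 bases, and at that length its mean level would be 86.9 TPM. For Chek1, Rad50, Nbn and Atrip, whose level is held by a matched curated transcript, the lengths were close, such as 3500 and 3397 bases for Chek1. In Trp53bp1 and Mdc1 the matched transcript held little of the gene's level, 0.0675 of 9.99 and 0.065 of 0.563 TPM, so their levels rest on predicted models with no length to compare. In estimated counts Chek1 was above Rnf8 in every library, at 17900, 18362, 16357 and 12552 against 10916, 10034, 11991 and 10320.

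Rad50, the coiled-coil ATPase that holds DNA ends, followed at 19.7, 18.7, 19.2 and 17.6 TPM. Its partner in that complex, Nbn, read 6.29, 8.5, 8.53 and 7.68 TPM, and Mre11a, the nuclease of the complex, is given with the other pathway genes below. Trp53bp1, the reader that steers ends away from resection, read 7.82, 8.91, 11.0 and 12.2 TPM. Trp53bp1 and Nbn overlapped in range and so were not separated, while Rad50 lay above both in all libraries.

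The kinases of the ATM family came last, with Atrip and Mdc1 among them. Atr read 2.65, 2.61, 2.44 and 2.97 TPM and its partner Atrip 1.33, 1.65, 1.80 and 3.47 TPM, with overlapping ranges. Smg1 read 0.87, 0.88, 0.85 and 1.00 TPM. Below it came Mdc1, the adaptor that reads phosphorylated H2AX, at 0.57, 0.51, 0.54 and 0.63 TPM, and Atm at 0.37, 0.31, 0.33 and 0.44 TPM, each apart from its neighbours in every library. Atm stood at rank 11324 with 120, 91, 97 and 122 estimated counts over a transcript of about 13000 bases, so its value rests on few reads. The longest GENCODE M21 transcript matched to its curated mRNA NM_007499.3 has 9787 bases. Its separation from Mdc1 therefore rests on the length behind the deposited TPM.

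Irradiation was then compared with control on the gene totals. None of the 10 genes passed edgeR's quasi-likelihood (QL) test at the study's limits, an adjusted p under 0.05 with a log2 fold change above 2 in size, or at the adjusted p alone. The background was 0.00796% of 12569 genes, a single gene. At an unadjusted p under 0.05 the count was also 0 of 10, against 5.93% of all genes, and DESeq2 called 0 of 10, against 0.023% at the same limits. All 10 genes passed the filter on low counts. Their log2 fold changes ran from -0.44 to 0.56 with a median of -0.10, against 0.01 over all genes tested. Of these, 8 lay below 0 and 2 above it, where 48.6% and 51.4% of all genes did. This split turned with the scaling: with plain library sizes 3 lay below 0 and 7 above it, against 27% and 73% of all genes, and on log2(TPM + 1) 2 lay below and 8 above, against 19.7% and 80.3%. The adjusted p values of the 10 genes ranged from 0.708 to 0.966 (edgeR QL test, Benjamini-Hochberg adjustment).

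**Figure D2:**
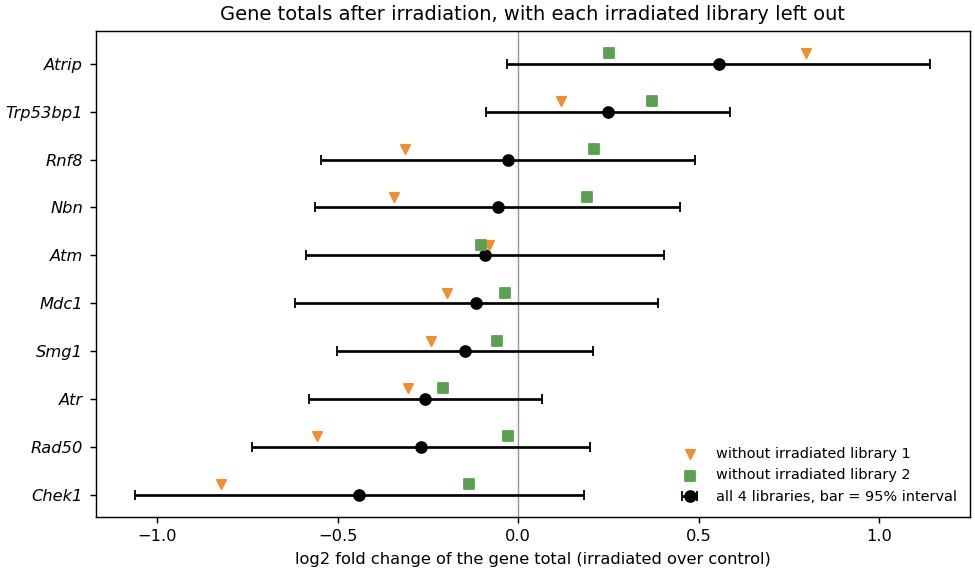
Log2 fold change of the gene total, irradiated over control, for the 10 genes, with black points for the fit on all 4 libraries, bars for its 95% interval, orange triangles for the fit without irradiated library 1 and green squares for the fit without irradiated library 2. Every black bar crosses 0, and for Chek1, Rad50, Atrip, Nbn and Rnf8 the triangle and the square lie far apart.

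Among the break sensors, Rad50 had normalised counts of 2753, 2446, 2549 and 1769. The low value was that of irradiated library 2, and irradiated library 1 lay between the controls. Its log2 fold change was -0.27 with a 95% interval of -0.74 to 0.20. Nbn had 414, 520, 532 and 368 normalised counts, so that irradiated library 1 was the highest and irradiated library 2 the lowest of the 4. Its fold was 0.961 with an interval of 0.677 to 1.36, while in TPM the ratio of the means was 1.10.

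Among the kinases, Atm had 123, 98.6, 103 and 105 normalised counts, with both irradiated libraries between the controls. Its fold of 0.939 had an interval of 0.666 to 1.32, while in TPM the ratio of the means was 1.13. Atr had 464, 461, 400 and 375, and Smg1 had 375, 359, 352 and 311. For these kinases both irradiated libraries lay below both controls on this scale, with folds of 0.837 for Atr (interval 0.669 to 1.05) and 0.902 for Smg1 (interval 0.706 to 1.15). In TPM the ranges of both genes overlapped and the irradiated mean was higher, 1.03-fold for Atr and 1.06-fold for Smg1, so their direction differed between the scales.

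Atrip, the partner that brings ATR to single-stranded DNA, had the largest positive difference of the 10, with 89.2, 104, 115 and 168 normalised counts. Both irradiated libraries were above both controls, irradiated library 1 by the smaller step. The log2 fold change was 0.56 (standard error 0.247) with an interval of -0.03 to 1.14, and its adjusted p was 0.708 (edgeR QL test). In TPM the ratio of the means was 1.77. Atrip is a single-transcript gene here, of about 2600 bases, with 87, 96, 108 and 195 estimated counts.

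Chek1, the kinase that holds the G2 arrest by acting on CDC25 phosphatases, had the largest negative difference, with 18350, 19900, 17400 and 10810 normalised counts. Both irradiated libraries lay below both controls, irradiated library 1 close beneath control library 1 and irradiated library 2 far from the rest. The log2 fold change was -0.44 (standard error 0.262) with an interval of -1.06 to 0.18. Chek1 was lower in both irradiated libraries on estimated counts, normalised counts and TPM alike.

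In the chromatin branch, Trp53bp1 had 868, 920, 1155 and 970 normalised counts. Both irradiated libraries were above both controls, here with irradiated library 1 the higher, and the same held for estimated counts and TPM. Its log2 fold change was 0.25 (standard error 0.143) with an interval of -0.09 to 0.59, and in TPM the ratio of the means was 1.39. Mdc1 had 112, 93.7, 99.8 and 89.2 normalised counts with overlapping groups, and a fold of 0.923 (interval 0.652 to 1.31). Rnf8 had 11190, 10880, 12750 and 8886, so that irradiated library 1 was the highest and irradiated library 2 the lowest, and its fold was 0.981 (interval 0.684 to 1.41). In TPM the ratio of the means was 1.08 for Mdc1 and 1.13 for Rnf8, so their direction also differed between the scales.

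Counted over the 10 genes, normalised counts of the conditions did not overlap with irradiated higher in 2 (Atrip and Trp53bp1), where 22.1% of all genes tested did the same. They did not overlap with irradiated lower in 3 (Atr, Smg1 and Chek1), where 19.8% of all genes did. In TPM the counts were 3 higher (Atrip, Trp53bp1 and Rnf8) and 1 lower (Chek1), against 32.8% and 5.9% of all genes. The median log2 fold change of all genes was 0.01 with the scaling used here (TMM), 0.17 with plain library sizes and 0.14 on log2(TPM + 1).

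Without irradiated library 1, so that irradiated library 2 alone was set against both controls, 5 of the 10 genes reached an adjusted p under 0.05, against 35.3% of all genes. By the edgeR QL test these were Chek1 at a log2 fold change of -0.82 (adjusted p = 3.95e-13), Rad50 at -0.56 (adjusted p = 1.27e-07), Nbn at -0.34 (adjusted p = 0.0277), Rnf8 at -0.31 (adjusted p = 0.0073) and Atrip at 0.80 (adjusted p = 0.000571). Without irradiated library 2 none of the 10 did, against 0.812% of all genes, and the log2 fold changes of the same genes were -0.14, -0.03, 0.19, 0.21 and 0.25. Leaving out control library 1 or 2 also gave 0 of 10, against 0.231% and 0.294% of all genes. The fits without an irradiated library assume that the lone irradiated library varies as the controls do.

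Below the level of the gene, the 10 genes differed in how their reads were divided among RefSeq transcripts, which the authors' program estimates from reads that several transcripts can share. Atrip, Rad50 and Rnf8 each had 1 listed transcript, and NM_007691.5 took at least 99.9% of the Chek1 count in every library. NM_013752.3 took 92.3% to 97.2% of Nbn. For the large kinases and Mdc1 the division was less settled.

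**Figure D3:**
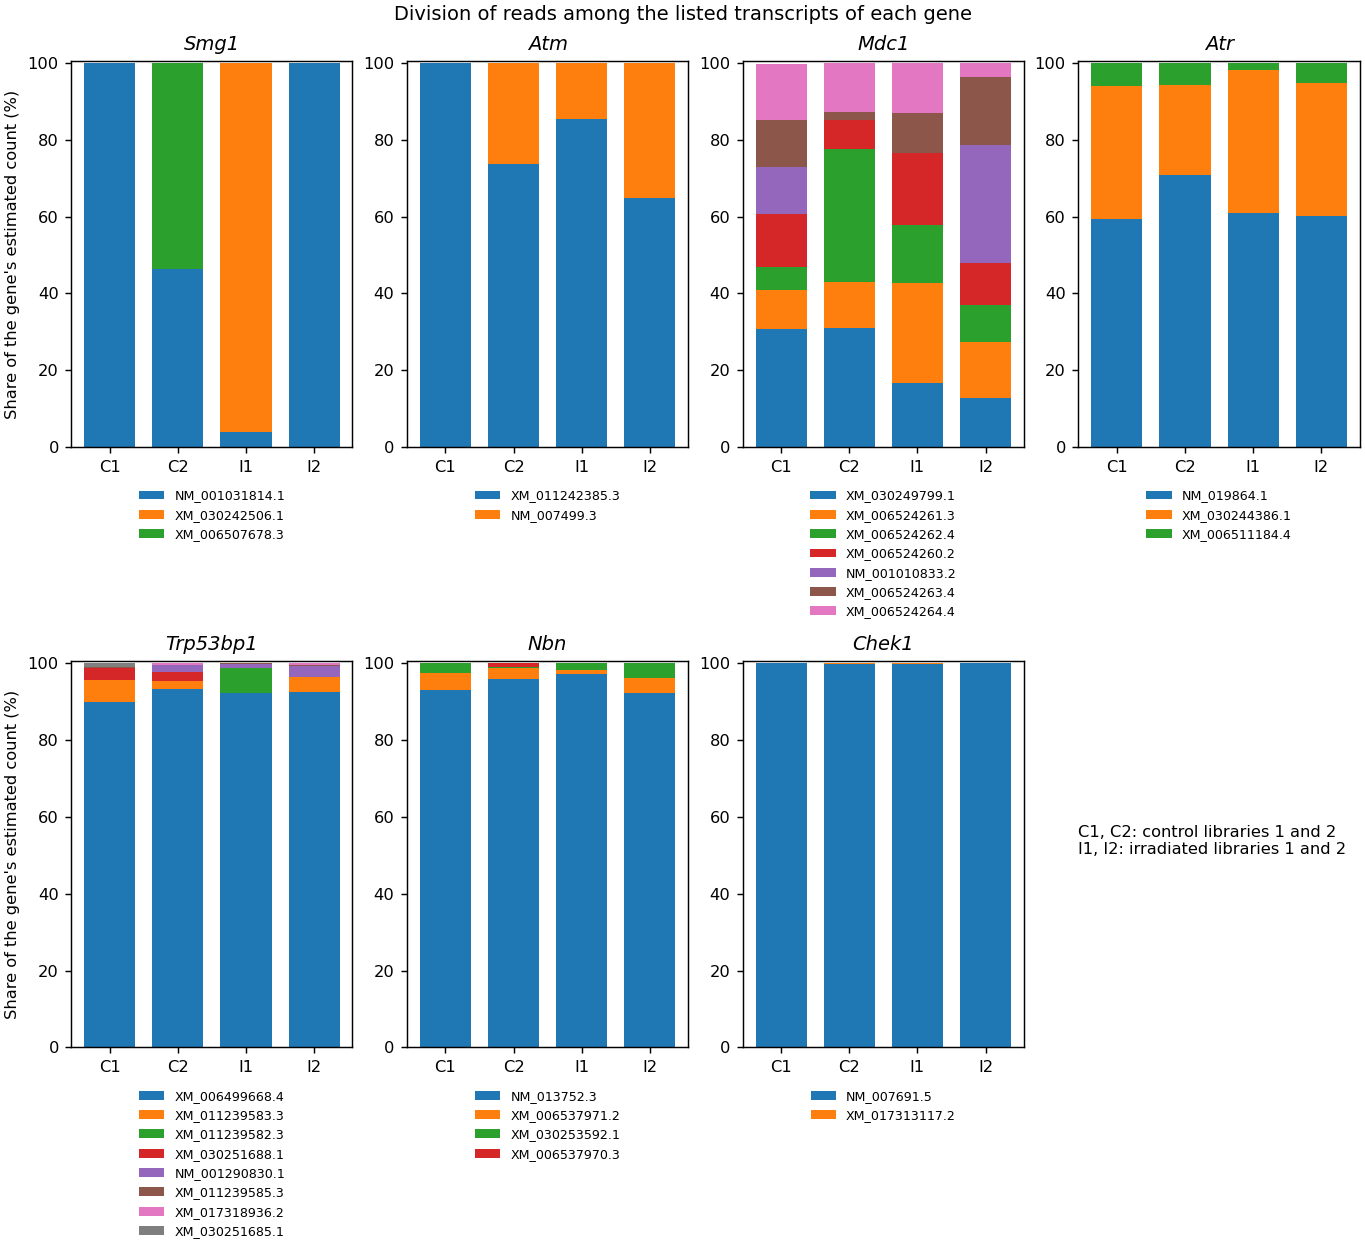
Share of each gene's estimated count, in percent, assigned to each of its listed transcripts in the 4 libraries, for the 7 genes with more than 1 listed transcript; C marks control and I irradiated libraries. Smg1 changes its main transcript from library to library, Atm and Mdc1 are split differently in each library, and Chek1, Nbn and Trp53bp1 are held by the same transcript throughout.

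Trp53bp1 was held by a predicted model, XM_006499668.4, at 89.9% to 93.3% of its count. The ratio of count to TPM placed that model at about 4130 bases, against about 9810 for the curated mRNA NM_001290830.1, which had 0, 16, 11 and 32 counts. XM_006499668.4 had 761, 791, 1002 and 1042 counts, higher in both irradiated libraries, as the gene total was, with a log2 fold change of 0.28 and an interval of -0.13 to 0.68. A minor model of the same gene, XM_030251688.1, had 26, 19, 0 and 0 counts. It was the only one of 23 member transcripts tested with an unadjusted p under 0.05, where 4.9% of 26645 transcripts had such a p, and its adjusted p was 0.777 (edgeR QL test). Another, XM_011239582.3, had 70 counts, all of them from irradiated library 1.

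Atr was shared between its curated mRNA NM_019864.1, at 59.3% to 70.8% of the count, and a shorter model, XM_030244386.1, of about 4800 against 8590 bases. Because of that length the short model reached 1.30, 0.93, 1.26 and 1.45 TPM beside 1.24, 1.57, 1.15 and 1.42 TPM for the curated mRNA. In TPM neither stood apart by condition. In estimated counts the curated mRNA had 269, 301, 229 and 262, lower in both irradiated libraries, with a log2 fold change of -0.34 and an interval of -0.87 to 0.18, and the short model had 157, 100, 140 and 151, with overlapping groups. Atm was assigned mainly to XM_011242385.3, with 120, 67, 83 and 79 counts, and otherwise to NM_007499.3, with 0, 24, 14 and 43. Mdc1 was spread over 7 transcripts, the first of which, XM_030249799.1, held 30.8%, 30.9%, 16.8% and 12.7% of the count, lower in both irradiated libraries but on 34, 27, 16 and 13 counts.

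In Smg1 the main transcript changed between libraries of the same condition. The curated NM_001031814.1 held 100%, 46.3%, 3.98% and 100% of the count in the 4 libraries, and the remainder went to a different predicted model in each case, XM_006507678.3 with 178 counts in control library 2 alone and XM_030242506.1 in irradiated library 1 alone. All 3 models are about 16700 to 16900 bases long, while the gene total was 366, 331, 331 and 361 counts. Such transcripts, with 50 or more counts in 1 library and at most 3 in each of the others, made up 3 of the 29 listed transcripts of members with several, against 1.36% of all such transcripts in the table.

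No member transcript passed the limits in the edgeR QL test, nor did any of the 26645 tested, while DESeq2 called 1 of the 28 member transcripts with an adjusted p, XM_030242506.1 of Smg1, against 0.862% of all. That call rested on irradiated library 1 alone, and the filter on low counts had kept this transcript out of the edgeR fit. With no filter edgeR called 0 member transcripts. Transcript usage, the share of a gene's reads held by each transcript, could be tested for Atm, Atr, Nbn, Mdc1 and Trp53bp1. None of these 5 passed, against 0.253% of 6323 genes. None had an unadjusted p under 0.05 either, against 6.12% of all.

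The 10 genes were then set beside their partners in 7 lists of pathway genes. No gene of these lists passed the edgeR QL test, with 0.708 the smallest adjusted p in each list. Over the 7 lists 3 of 62 genes tested, H2ax, Ruvbl2 and Upf1, had an unadjusted p under 0.05, against 5.93% of all genes, which is near the background. For lists in which none passed, up to 2 genes with the smallest unadjusted p are named, with estimated counts in each library. The log2 fold changes beside them come from scaled counts, so a sign can differ from that of the estimated counts. Wee1 and Rbbp8, for example, were highest in irradiated library 2 in estimated counts but below both controls there in normalised counts. Mre11a and Chek2 were added after their values had been seen, as the direct partners of members.

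Of the break-end partners, 5 of 5 were tested, with a median log2 fold change of -0.18, and 1 reached an unadjusted p under 0.05, where 5.93% of all genes did. H2ax, the histone variant marked beside breaks, had 740, 856, 912 and 2238 counts, so that its log2 fold change of 0.78 came mostly from irradiated library 2. Rbbp8, which starts resection, had 867, 869, 758 and 930 counts and -0.19. Mre11a, the nuclease of the complex with Rad50 and Nbn, had 617, 596, 672 and 482 counts and -0.18. It was lowest in irradiated library 2, where the normalised counts of Rad50 and Nbn were also lowest. That library held the highest or the lowest normalised count for 73.6% of all genes tested, and the share with the lowest alone was not counted.

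Of the kinase family and its assembly factors, 8 of 8 were tested, with a median of 0.06. Ruvbl2, an ATPase of the machinery that assembles these kinases, had 1964, 1658, 2163 and 3161 counts and a log2 fold change of 0.40, also at an unadjusted p under 0.05, and Tti1, a subunit of the same machinery's adaptor, had 229, 197, 244 and 355 counts and 0.34.

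Of the list for activation of ATR and the Rad9-Hus1-Rad1 clamp, 14 of 15 genes were listed and tested, with a median of -0.13, 5 above 0 and 9 below. Over all genes tested 51.4% lay above 0 and 48.6% below. Such a split turned with the scaling for the 10 genes above. Topbp1, the activator of ATR, had 1346, 1087, 1064 and 1083 counts and a log2 fold change of -0.31, and Tipin, a fork protection factor that helps activate CHK1, had 8352, 7239, 6977 and 5072 counts and -0.48. Both Tipin and Chek1 were below the controls in each irradiated library and lowest in irradiated library 2. On normalised counts, 19.8% of all genes tested lay below both controls in each irradiated library. Irradiated library 2 was the highest or the lowest for 73.6% of all genes tested, and the share in which it was the lowest was not counted.

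Of the checkpoint effectors downstream of Chek1 and Atm, 7 of 7 were tested, with a median of -0.07. Wee1, the inhibitory kinase of CDK1, had 694, 704, 589 and 747 counts and -0.22, and Ppm1d, the phosphatase that ends the response, had 138, 136, 158 and 214 counts and 0.29. Chek2, the effector kinase of ATM, had 76, 86, 59 and 98 counts beside the 12552 to 18362 of Chek1.

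Of the ubiquitin branch around Rnf8, 11 of 11 were tested, with a median of -0.07. Rnf168, the ligase that follows RNF8, had 1825, 1699, 1593 and 1419 counts and a log2 fold change of -0.35, and Brca1 had 927, 930, 831 and 891 counts and -0.25. Of the effectors of 53BP1, 8 of 8 were tested, with a median of 0.08. Rif1, its main partner, had 3523, 3358, 3057 and 3227 counts and -0.27, Nudt16l1, which binds its reader domain, had 1816, 1564, 1804 and 2582 counts and 0.22, and Trp53bp1 itself was at 0.25.

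Of the nonsense-mediated decay partners of SMG1, 9 of 9 were tested, with a median of -0.05. Upf1, the helicase that SMG1 phosphorylates, had 1755, 1648, 2385 and 4728 counts and the largest difference of these lists, a log2 fold change of 0.88 with an interval of 0.35 to 1.42 and an unadjusted p under 0.05. Both irradiated libraries were above both controls, irradiated library 2 most. Smg1 itself was at -0.15.

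**Figure D4:**
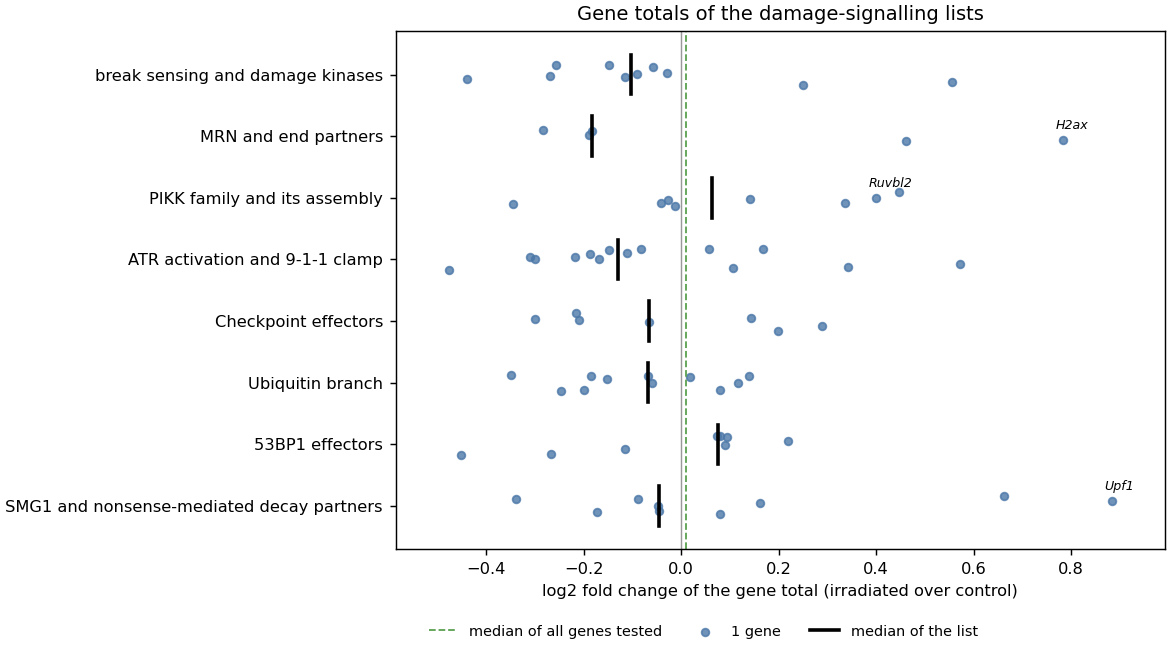
Log2 fold change of the gene total, irradiated over control, for the 10 genes and the 7 lists of partners, with 1 point for each gene, a black bar for the median of the list and a dashed green line for the median of all genes tested. List medians lie between -0.18 and 0.08 around the 0.01 of all genes, and H2ax, Ruvbl2 and Upf1 are labelled as the genes with an unadjusted p under 0.05.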

How the data were processed

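RNA was measured in 4 libraries of pooled GV oocytes, 2 control and 2 irradiated, grouped by the treatment and numbered titles in the labels. Poly(A) RNA was selected with oligo(dT) and sequenced on an Illumina HiSeq as paired 100-base reads. Per the study's methods, trimmed reads were aligned to GRCm38 (mm10) with Bowtie2, and the submitters' processing notes also name HISAT2 and RSEM, with versions not given. The table deposited by the authors holds estimated counts per RefSeq transcript, and TPM, which the authors divided by transcript length and scaled to one total per library. FPKM and averaged columns (10) were not used. Whether counting used strand is not given in the sources used here, so reads of overlapping antisense genes cannot be told apart.

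Estimated counts were summed per gene and rounded, filtered with filterByExpr (minimum count 10), scaled by TMM with full-table totals and tested with the quasi-likelihood (QL) test of edgeR (edgeR 4.0.16, R 4.3.3) over 12569 genes and 26645 transcripts, and p-values were Benjamini-Hochberg adjusted over every gene or transcript in the fit. Normalised counts are counts divided by the effective library size and brought to the mean library. Usage was tested with diffSpliceDGE and Simes' method over 6323 genes. The limits for a call were those of the study's methods, 0.05 for the adjusted p together with 2 for the size of the log2 fold change. DESeq2 1.42.0 and limma 3.58.1 (pseudocount 1 on TPM) served as alternatives, and the edgeR, DESeq2 and usage tests were run on simulated counts with known changes. Library totals of 33349466 to 37232818 set the counting precision. The common dispersion was 0.0251 for gene totals and 0.473 for transcripts.

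Named were all 10 members, each member's transcript of highest mean TPM and its transcripts with an unadjusted p under 0.05 in edgeR or an adjusted p under 0.05 in DESeq2, and, from each list, genes past the test or else up to 2 of smallest unadjusted p. A result that this rule would name is not reported here. Any other transcript was picked with its values in view. The members and lists were chosen with earlier results of these data known. Of 17374 gene IDs, 17323 matched the RefSeq gene table (GRCm38.p6). Lengths implied by the deposited TPM are counts over TPM, scaled in each library by the median ratio to GENCODE M21 lengths of matched NM transcripts. Of 5470 such transcripts with 200 or more counts in every library, 80.4% came within 0.8 to 1.25 times the matched length and 3.69% came under 0.5 times.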

Additional observations from a re-analysis of the deposited data

How the results depend on the processing

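None of the 10 gene totals passed both limits under any alternative, and no member passed the usage test under any. Over all genes, the count past both limits was 1. It was 0 with library sizes alone and on log2(TPM + 1) with limma, 3 with no filter, 4 with DESeq2, 10 with edgeR's exact test and 16 to 51 when a library was left out. Over all transcripts it was 0, 248 with DESeq2 and 299 with edgeR's exact test, and for member transcripts 0, and 1 with DESeq2. Usage called 16 genes, 58 with the F test, 8 with no filter and 2 to 30 when a library was left out. The replicate numbers are shared between conditions, but no label says that they mark a shared experiment, and the deviations of control 1 and irradiated 1 correlated at 0.0785 over 12569 genes. With the replicate block 7 genes were called on gene totals, 3 on usage and 0 members on either.

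Signs changed for 6 gene totals, which lay between -0.26 and -0.03 in the fit on all libraries, and for 4 transcripts, among them NM_001031814.1 at -0.70. With library sizes alone the log2 fold changes were 0.0753 for Atm, 0.00449 for Smg1, 0.0712 for Nbn, 0.0414 for Mdc1, 0.103 for Rnf8, 0.0729 for NM_013752.3 of Nbn and 0.103 for NM_021419.2 of Rnf8. On log2(TPM + 1) they were 0.0469 for Atm, 0.0258 for Atr, 0.0369 for Smg1, 0.128 for Nbn, 0.0412 for Mdc1 and 0.17 for Rnf8. Without control 1 they were 0.0781 for Atm, 0.0223 for Mdc1, 0.119 for XM_011242385.3 of Atm, 0.00569 for NM_021419.2 and 0.000983 for NM_001031814.1 of Smg1. Without control 2 they were 0.118 for Nbn and 0.173 for NM_013752.3. Without irradiated 1 NM_001031814.1 was at 0.232. Without irradiated 2 they were 0.19 for Nbn, 0.21 for Rnf8, 0.23 for NM_013752.3 and 0.215 for NM_021419.2. The ranges over left-out libraries began at -0.24 for Atm, -0.344 for Nbn, -0.238 for Mdc1, -0.312 for Rnf8, -0.631 for XM_011242385.3, -0.352 for NM_013752.3, -0.281 for NM_021419.2 and -4.27 for NM_001031814.1. The cause was not tested. Chek1, Rad50, Atrip and Trp53bp1 kept their sign under every alternative, from -0.82 to -0.14 for Chek1, -0.56 to -0.03 for Rad50, 0.25 to 0.80 for Atrip and 0.12 to 0.43 for Trp53bp1. The depth of Atm, Mdc1 and Atrip, at 86 to 195 counts in a library, limits what can be seen in them.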
